A study of Mus musculus with 6 samples.

Results

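Inhibitory receptors on B cells are described here in peritoneal cavity (PC) B1a cells of a mouse model of autoimmune cholangitis. They are 8 genes, Cd22, Cd72, Siglecg, Lilrb3 (the array's name for Pirb, paired Ig-like receptor B), Lair1, Btla, Ctla4 and Pdcd1, and every probe that the array names for one of them was read. The array names 36163 genes and transcripts in all. The 8 genes had 12 of its 55681 probes, and 11 of the 12, covering all 8 genes, were bright enough to be tested. The 6 one-colour arrays held RNA of PC B1a cells sorted as CD11b+CD5+ B cells from 7-week-old females. Of these, 3 came from p40-/-IL-2Rα-/- mice, which lack both the p40 subunit of IL-12 (Il12b) and IL-2Rα (CD25), and are called knockout. The other 3 came from littermate p40-/-IL-2Rα+/- mice, which keep 1 working IL-2Rα allele and are called control. The p40 deletion was thus shared by both genotypes, both were on a C57BL/6J background, and the series' design text gives at least 3 mice for each sample without saying how they were combined. The deletions are in every cell of the animal, so that the comparison is not of a deletion made in B1a cells.

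Most of these receptors carry immunoreceptor tyrosine-based inhibitory motifs (ITIMs) in their cytoplasmic tails. When a receptor is brought near the B cell receptor, kinases such as Lyn phosphorylate the ITIMs, and these recruit phosphatases, chiefly the product of Ptpn6, which turn down the signal that antigen gives. B1a cells respond weakly to stimulation of their B cell receptor, and Cd22, Siglecg, Cd5 and Lilrb3 are each known to restrain B cells of this kind.

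The probes are shown first because probes of 1 gene gave different answers. All positions are in mm9, as given in the array files. The 2 Cd22 probes lie on the minus strand of chromosome 7 at chr7:31651249-31651308 and chr7:31665113-31665172, and their starts are 13864 bases apart. The first begins at base 3211 of its transcript and is called the 3′ probe. The other begins at base 189 of another Cd22 transcript and is called the 5′ probe. The first 30 bases of each are, 5′ to 3′:
Cd22 3′ probe: gaaaaatgaaaaaccaaccaaccaaccaaa
Cd22 5′ probe: agggcctgctgtgttttttcatctacttta

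The 2 Cd72 probes, on the minus strand of chromosome 4 at chr4:43460596-43460655 and chr4:43460607-43460666, are offset by 11 bases and share 49, so that they are close to 1 measurement made at 2 spots. The bases that both probes hold are in capitals in the first 30 bases of each:
Cd72 probe 1: ATGGCCCGGAGCCAGCCAGGCAGTTTTATT
Cd72 probe 2: tgagtggatggATGGCCCGGAGCCAGCCAG

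The 2 Siglecg probes, on the plus strand of chromosome 7, do not overlap. The junction probe has its 60 bases spread over chr7:50668051-50673194, a span of 5144 bases that includes an intron, and the exon probe lies at chr7:50667115-50667174. They are printed whole because they read different stretches of the transcript:
Siglecg junction probe: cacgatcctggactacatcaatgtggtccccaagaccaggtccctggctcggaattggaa
Siglecg exon probe: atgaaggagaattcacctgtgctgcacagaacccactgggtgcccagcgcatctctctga

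Of the other members, Lilrb3 (chr7:3664137-3664196, minus strand), Btla (chr16:45252905-45252964, plus strand), Ctla4 (chr1:60971801-60971860, plus strand) and Pdcd1 (chr1:95935064-95935123, minus strand) have 1 probe each. Lair1 has 2, both on the minus strand of chromosome 7. The Lair1 probe at chr7:3959675-3959734 was tested, and the probe at chr7:3959434-3959493 was not well above background on any of the 6 arrays.

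Every level below is the log2 of a probe's processed signal minus the log2 of the 75th percentile of its array, and a change is the knockout mean minus the control mean on that scale. Summed levels of markers are the exception: they add the levels after these are put back on the linear scale. In control arrays 1, 2 and 3 that percentile was 264, 252 and 272 signal units, and in knockout arrays 1, 2 and 3 it was 131, 66.5 and 162, so that the knockout arrays were dimmer. Between 47.2% and 50.6% of spots were well above background on control arrays and between 39.7% and 45.9% on knockout arrays. All 6 arrays were on 1 slide, with control arrays 1 and 2 in row 1 and control array 3 and all knockout arrays in row 2. The sorted cells carried their defining markers: 7 of 7 B lineage genes and 5 of 5 B1a genes were well above background on all 6 arrays, and none of them passed the 2-fold rule in either direction.

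Among the inhibitory receptors, Cd72 was higher in knockout B1a cells by both of its probes, and Cd22 was higher by its 5′ probe and not by its 3′ probe. Siglecg, Lilrb3, Lair1 and Btla did not pass either rule for a call, and neither did Ctla4 and Pdcd1. A probe was called when it changed at least 2-fold with an unadjusted p of at most 0.05, the study's thresholds for its array-wide list. It was also called when its adjusted p in limma (Benjamini-Hochberg over all 24762 tested probes) was under 0.05. For genes of B cell function the study also used a lower fold change and quantitative PCR, which were not applied here. By the 2-fold rule 3 of 11 member probes were higher, beside 2.38% of all tested probes, and 0 were lower, beside 1.25%. Those 3 were both Cd72 probes, which share most of their bases, and the Cd22 5′ probe. By the brightest probe of each gene, Cd72 alone of the 8 genes was called higher, beside 2.26% of all genes. By adjusted p 1 member probe was called, beside 0.0808% of all probes (20 probes). At an unadjusted p under 0.05 in limma there were 5 of 11 member probes, beside 24.5% of all probes (6079 probes). The genotypes did not overlap for 5 member probes with higher levels in knockout, beside 15.6% of all probes, and for 1 with lower levels, beside 19.6%. The median change of the 11 probes was 0.13, and that of all tested probes was -0.09. Of all probes called at 2-fold, 65.5% were higher in knockout with this scaling, 78.9% when arrays were scaled on the median of the probes that all of them detected, 44.4% with quantile normalization, 43.2% in the deposited log2 values, and 57.9% or 81.2% after a normexp background correction, scaled by 75th percentile or by quantiles.

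**Figure D1:**
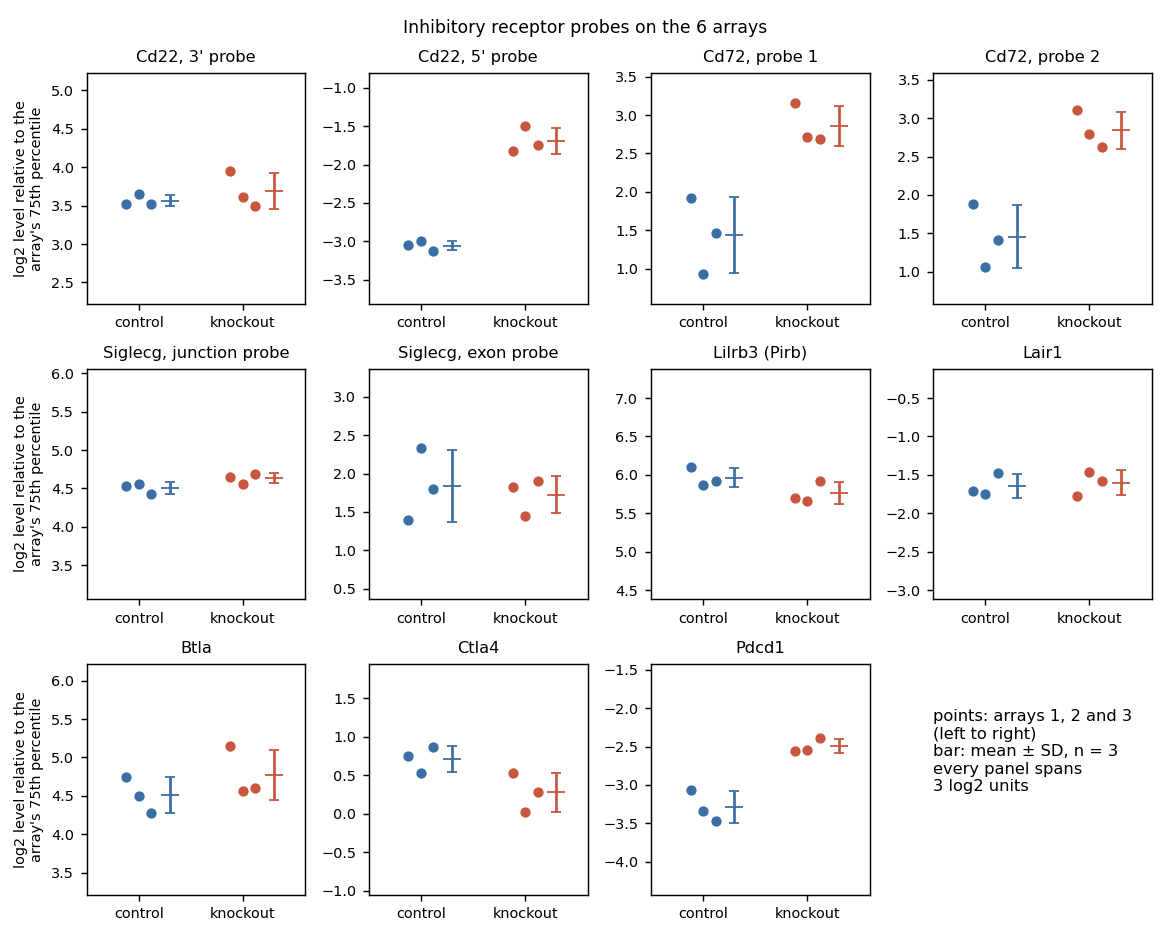
Log2 level relative to the array's 75th percentile (vertical axis, 3 log2 units in every panel) of the 11 tested probes in 3 control (blue) and 3 knockout (red) arrays; points are arrays and bars are mean ± SD (n = 3). The genotypes stand well apart for the Cd22 5′ probe, both Cd72 probes and Pdcd1, and meet or overlap for the other 7 probes.

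Cd72 is a lectin-like receptor of B cells whose ITIM recruits the phosphatase encoded by Ptpn6 and whose ligand is the product of Sema4d. By probe 1 its level was 1.92, 0.93 and 1.47 on control arrays 1, 2 and 3 and 3.16, 2.72 and 2.69 on knockout arrays 1, 2 and 3. Probe 2 gave 1.88, 1.07 and 1.42 in control and 3.10, 2.79 and 2.63 in knockout. Every knockout array was above every control array by both probes, and control array 2 was the lowest by both. The mean of probe 1 was 1.44 ± 0.50 in control and 2.86 ± 0.26 in knockout (SD, n = 3), a rise of 1.42 (2.67-fold, SE 0.27, 95% CI 0.78 to 2.06). Probe 2 rose by 1.39 (2.61-fold, SE 0.24, 95% CI 0.82 to 1.95). Both met the 2-fold rule, with adjusted p in limma of 0.0891 and 0.0829. The adjusted p of probe 1 was under 0.05 in 3 of 21 alternatives, with a range of 0.00526 to 0.535.

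Unscaled processed signals of probe 1 were 1000, 481 and 752 in control and 1170, 438 and 1046 in knockout, on knockout arrays that were dimmer as a whole. The unscaled signals of the genotypes thus overlapped, knockout array 2 was the lowest of all 6, and the part of the dimmer knockout arrays in the rise was not tested. The rise of probe 1 lay between 1.07 and 1.58 under every other setting that used all 6 arrays, and between 1.16 and 1.66 with each array left out in turn. Within row 2 of the slide, the 3 knockout arrays stood 1.39 above the single control array by probe 1. In bulk RNA such as this, more transcript per cell and more cells that express a gene cannot be told apart.

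Cd22 is a lectin that binds sialic acid on the cell's own glycoproteins and is among the main brakes on the B cell receptor. Its 3′ probe read 3.52, 3.65 and 3.53 in control and 3.95, 3.62 and 3.49 in knockout. The genotypes overlapped, and only knockout array 1 was above all controls. The difference was 0.12 (SE 0.17, 95% CI -0.27 to 0.52, adjusted p in limma 0.640), an interval that ends well short of 2-fold. After normexp with percentile scaling it was -0.19, and without knockout array 1 it was -0.0078, so that its direction is not settled.

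The 5′ probe of Cd22 gave another answer. Its level was -3.04, -3.00 and -3.12 in control and -1.83, -1.50 and -1.75 in knockout. All knockout arrays were above all control arrays, with little spread within either genotype. The rise was 1.36 (2.57-fold, SE 0.15, 95% CI 1.01 to 1.72), and it met the 2-fold rule and the adjusted threshold (adjusted p in limma 0.0463). This probe was dim. Its unscaled signals were 32.0, 31.5 and 31.2 in control and 36.8, 23.5 and 48.0 in knockout, against the array percentiles above, so that unscaled signals of the genotypes overlapped. With no filter on dim probes, 98.2% of the 18975 probes called at 2-fold were higher in knockout. The median change of all probes was then 0.55. The Lair1 probe that was not well above background on any array had means of -6.59 in control and -5.38 in knockout.

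The rise of the Cd22 5′ probe was 1.13 in the deposited log2 values, 0.92 after normexp with percentile scaling and 0.42 after normexp with quantile normalization. Its adjusted p stayed under 0.05 in 6 of 19 alternatives; leaving out any single array other than knockout array 3 took it to between 0.0628 and 0.241. Dimness of the knockout arrays moved with this result, and its part was not tested. On each array, the log2 level of the 5′ probe minus that of the 3′ probe was -6.56, -6.65 and -6.65 in control and -5.78, -5.12 and -5.25 in knockout. The genotypes did not overlap in this difference, and their means were 1.24 apart. An exact permutation test over the arrays gave a p of 0.1, the smallest that 3 arrays per genotype allow. The distance between the probes' changes moved with the setting. The 5′ and 3′ probes changed by 0.92 and -0.19 after normexp with percentile scaling, by 1.13 and 0.32 with quantile normalization alone, and by 0.42 and 0.29 with both normexp and quantile normalization.

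Siglecg encodes a sialic acid receptor that limits calcium signals, above all in B1 cells. By the junction probe its level was 4.53, 4.56 and 4.42 in control and 4.65, 4.56 and 4.69 in knockout. The exon probe gave 1.40, 2.33 and 1.80 in control and 1.82, 1.45 and 1.90 in knockout. The junction probe's highest control and lowest knockout array were equal to the second decimal, and the exon probe's genotypes overlapped over most of their range. The changes were 0.13 (SE 0.14, 95% CI -0.19 to 0.45, adjusted p in limma 0.552) and -0.12 (SE 0.26, 95% CI -0.73 to 0.49, adjusted p in limma 0.782), and neither sign was settled: the junction probe turned with normexp and the 75th percentile, and the exon probe with quantile normalization.

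Lilrb3, as the array names it, is Pirb, an ITIM receptor of B cells and myeloid cells that binds major histocompatibility complex (MHC) class I. Its level was 6.10, 5.86 and 5.92 in control and 5.70, 5.66 and 5.92 in knockout. Knockout array 3 lay among the controls, and the other knockout arrays were below them. The change was -0.20 (SE 0.15, 95% CI -0.56 to 0.16, adjusted p in limma 0.412), and it stayed below 0 in all 21 alternatives. After normexp with percentile scaling it was -0.51 with an adjusted p of 0.0458, the single alternative in which it passed.

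Lair1 encodes a receptor for collagens. The tested probe had a level of -1.71, -1.75 and -1.47 in control and -1.78, -1.46 and -1.58 in knockout. The genotypes covered nearly the same range. The change was 0.04 (SE 0.16, 95% CI -0.34 to 0.42, adjusted p in limma 0.885), and it turned negative in 7 of 21 alternatives. Macrophages carry both Lilrb3 and Lair1: the summed level of the tested and untested macrophage markers on the array was 17.6 to 29.8 in control and 13.1 to 24.4 in knockout, and 2 of 8 tested markers passed the 2-fold rule, Lyz2 (-1.08) and Mrc1 (-1.08), both lower. Lyz2 was at -0.76 without control array 2 and -0.14 with the slide row as a block, and it no longer met the rule when any one of control arrays 1 and 2 or knockout arrays 1 and 3 was left out. Mrc1 was at -0.93 without knockout array 1 and -0.92 without knockout array 2, under 2-fold in both. The part of these cells in the values of Lilrb3 and Lair1 was not tested.

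Btla binds the tumour necrosis factor receptor family member encoded by Tnfrsf14. Its level was 4.75, 4.50 and 4.28 in control and 5.14, 4.56 and 4.60 in knockout. Knockout array 1 was the highest of all 6, and the other 2 lay within the control range. The change was 0.26 (SE 0.22, 95% CI -0.25 to 0.76, adjusted p in limma 0.448). It was 0.07 without knockout array 1 and -0.10 with normexp and the 75th percentile.

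Ctla4 and Pdcd1 are best known as brakes on T cells, and both are also found on B cells. Ctla4 had a level of 0.75, 0.53 and 0.86 in control and 0.53, 0.03 and 0.28 in knockout. Knockout array 1 and control array 2 were equal to the second decimal, and the other 2 knockout arrays were lower than every control. The change was -0.44 (SE 0.18, 95% CI -0.87 to -0.01) with an unadjusted p of 0.0475 and an adjusted p of 0.201 in limma. It was below 0 in all 21 alternatives, with an adjusted p between 0.0830 and 0.542.

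Pdcd1 had a level of -3.06, -3.33 and -3.47 in control and -2.55, -2.55 and -2.39 in knockout. Every knockout array was above every control array. The fitted change was 0.79 (SE 0.16, 95% CI 0.41 to 1.17, adjusted p in limma 0.0935), below the 2-fold rule. The probe was well above background on 3 control arrays but on 2 of 3 knockout arrays, and its unscaled signals were 31.6, 25.0 and 24.5 in control and 22.3, 11.4 and 30.9 in knockout. The change was 0.51 in the deposited log2 values and 0.11 with normexp and quantile normalization, and the adjusted p was under 0.05 in 2 of 20 alternatives. As with the Cd22 5′ probe, the part that the dimmer knockout arrays have in it was not tested.

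**Figure D2:**
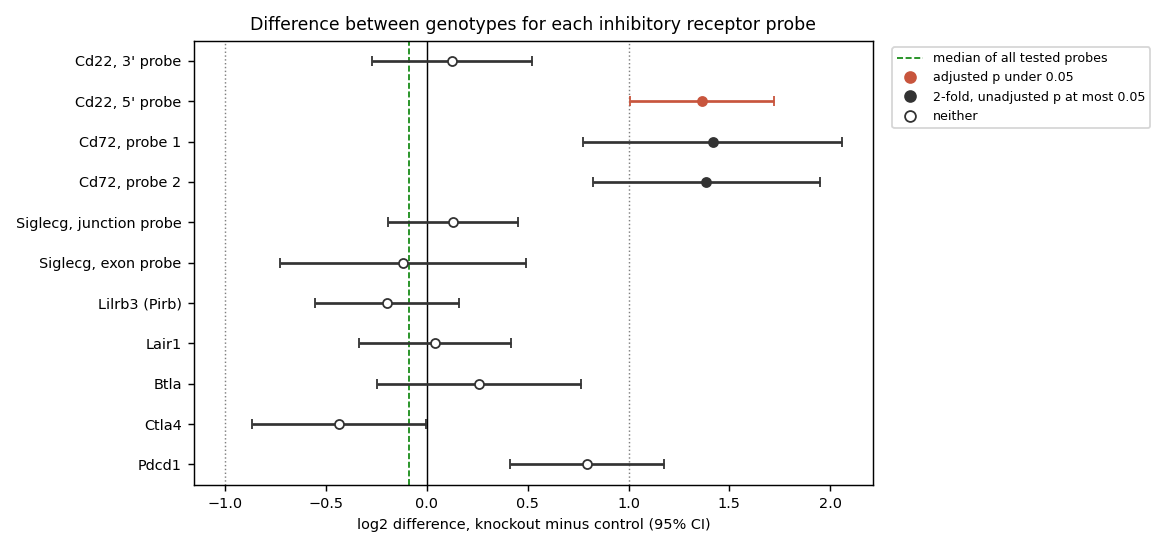
Log2 difference between genotypes (horizontal axis, knockout minus control) with its 95% confidence interval from limma for the 11 tested probes; dotted lines mark 2-fold and the dashed line is the median of all tested probes, -0.09. The Cd22 5′ probe (1.36) and the Cd72 probes (1.42 and 1.39) lie beyond 2-fold, and the interval of the Cd22 3′ probe (-0.27 to 0.52) includes 0.

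**Figure D3:**
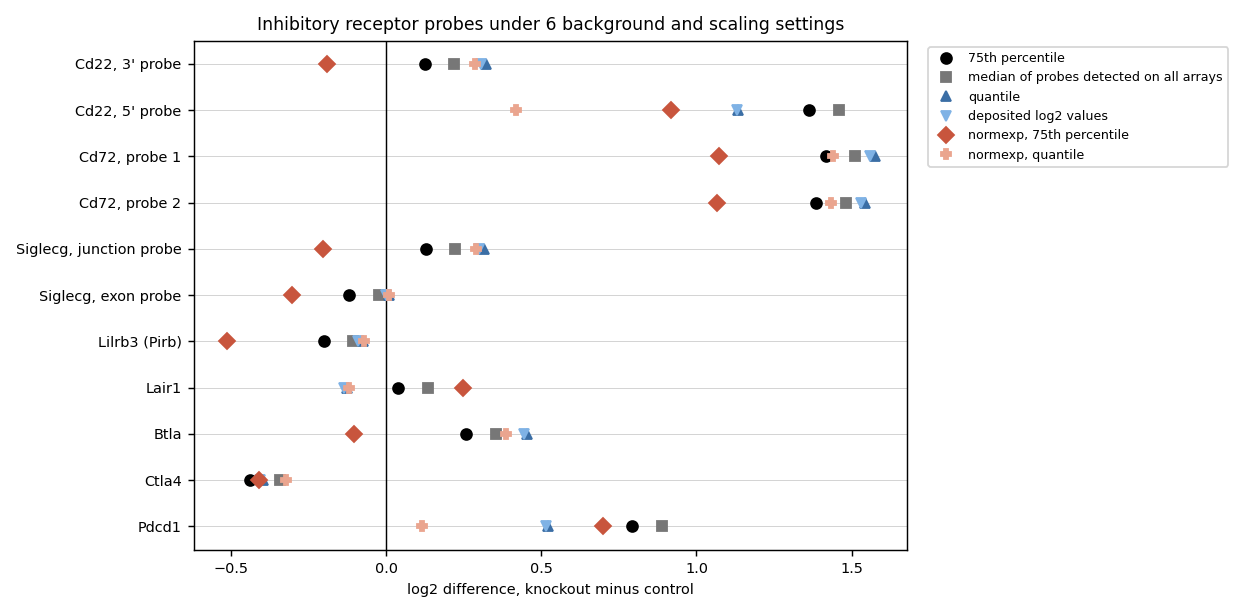
Log2 difference between genotypes (horizontal axis) of the 11 tested probes under 6 settings of background correction and scaling, 1 marker per setting. Cd72 stayed between 1.07 and 1.58, the Cd22 5′ probe ranged from 0.42 to 1.46 and Pdcd1 from 0.11 to 0.89, while Cd22 by its 3′ probe, Siglecg, Lair1 and Btla changed sign between settings.

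The markers of T cells, which carry Ctla4, Pdcd1 and Lag3, are given beside these genes. Of 8 tested T cell markers, 2 passed the 2-fold rule, Zap70 (1.23) and Cd3d (1.41), both higher. With normexp and quantile normalization these were 0.49 and 0.59. Cd3d was at 0.89 without knockout array 3 and at 2.02 without knockout array 1, and it no longer met the rule when any one of control arrays 2 and 3 or knockout arrays 2 and 3 was left out. The summed level of the 10 markers was 268 to 282 in control and 222 to 303 in knockout. The list holds Cd2, which mouse B cells express too, and without it the sum of the other 7 tested markers was 9.11 to 15.0 in control and 14.0 to 16.2 in knockout. Cd8a and Cd8b1 were not well above background on any control array and on 1 knockout array each. The part of T cell RNA in the values of Ctla4, Pdcd1 and Lag3 was not tested. Of the plasma cell markers 1 of 4 tested passed, Igj (-1.92, lower), which was at -1.33 without knockout array 2 and at -2.62 without knockout array 3. Of the markers of B2 cells (3 tested), NK cells (2 tested) and granulocytes and mast cells (1 tested) none did.

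The genes that work with the receptors were read by the brightest tested probe of each gene. Over all 18261 genes with a tested probe, 2.26% were higher and 1.28% lower by the 2-fold rule, 0.0657% passed the adjusted p, 24.4% had an unadjusted p under 0.05 in limma, and the median change was -0.12. None of the genes in the 4 lists that follow passed the adjusted p in limma.

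The first list holds the molecules that ITIMs recruit and the kinases that phosphorylate them. Of 13 tested genes, 0 were higher and 0 lower by the 2-fold rule, 3 had an unadjusted p under 0.05 in limma, and the median change was -0.24. Ptpn6, the phosphatase that most of the receptors recruit, had a change of -0.08 (SE 0.15, adjusted p 0.735). Its level was 5.52, 5.62 and 5.55 in control and 5.66, 5.44 and 5.34 in knockout, so that the genotypes overlapped, and its sign turned with quantile normalization. Dok3, an adaptor that holds back B cell receptor signals, was at 0.26 (SE 0.15, adjusted p 0.301). The 2 lowest values of the list, chosen after the values were seen, were those of Dok2 (-0.86, adjusted p 0.102), an adaptor that met the 2-fold rule without control array 3, and Inppl1 (-0.62, adjusted p 0.140), an inositol phosphatase.

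Of the 12 ligands of the receptors and enzymes that make or edit them, all tested, 0 were higher and 1 was lower by the 2-fold rule, 4 had an unadjusted p under 0.05, and the median change was 0.08. St6gal1 makes the sialic acid linkage that Cd22 binds. By its brightest probe its level was 4.02, 3.93 and 3.91 in control and 3.09, 2.42 and 3.31 in knockout. All knockout arrays were lower, and knockout array 2 was the lowest. It fell by 1.01 (2.02-fold, SE 0.24, adjusted p in limma 0.103), and the fall was 0.76 without knockout array 2 and 0.98 without control array 1, under 2-fold in both. The change was also under 2-fold with quantile normalization (-0.83), in the deposited log2 values (-0.84) and with normexp and quantile normalization (-0.81). It was -0.92 with the median scaling, -0.86 with array weights, -0.97 with the slide row as a block and -0.49 with its probes averaged. With normexp and the 75th percentile it was -1.265.

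The second tested St6gal1 probe, which was dim, gave -2.18, -1.95 and -1.77 in control and -2.03, -1.92 and -1.81 in knockout, a change of 0.04 (SE 0.16). The fall in St6gal1 was thus seen by 1 of its 2 probes. The MHC class I gene H2-K1, whose product Pirb binds, was at 0.49 (SE 0.14, adjusted p 0.126) with no overlap between genotypes, but at 0.039 with quantile normalization and 0.028 in the deposited log2 values. H2-D1 was at 0.14 (SE 0.20, adjusted p 0.659), a value that turned negative with quantile normalization. Cd80, a ligand of Ctla4 chosen here after its values were seen, was at -0.75 (SE 0.14, adjusted p 0.0891), also with no overlap.

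In the B cell receptor and its coreceptor, 0 of 15 tested genes were higher or lower by the 2-fold rule, 4 had an unadjusted p under 0.05 in limma, and the median change was -0.11. Cd79b, a signalling chain of the receptor, was at 0.28 (SE 0.16, adjusted p 0.291), and its sign turned with quantile normalization. Blnk, the adaptor that Syk phosphorylates, was at -0.12 (SE 0.16, adjusted p 0.626).

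Of 10 tested inhibitory receptors outside the 8 members, 1 was higher and 0 lower by the 2-fold rule, 3 had an unadjusted p under 0.05, and the median change was -0.26. Lag3, an MHC class II receptor found on T cells and some B lineage cells, had a level of -3.23, -3.28 and -3.68 in control and -1.08, -1.69 and -2.57 in knockout. Every knockout array was above every control, and the knockout arrays spread widely. Lag3 rose by 1.62 (3.07-fold, SE 0.36, adjusted p in limma 0.101), and by 0.49 with normexp and quantile normalization, on a dim probe. Without knockout array 3 its adjusted p was 0.0440.

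Fcrl5, an Fc receptor-like ITIM protein of B1 cells, had a level of 5.05, 5.21 and 5.20 in control and 5.84, 6.09 and 5.76 in knockout by its brightest probe. The genotypes did not overlap, and the change was 0.74 (SE 0.16, adjusted p in limma 0.0945), short of 2-fold. Its other tested probe was at -0.60 (SE 0.59), with the genotypes overlapping. Fcgr2b, the inhibitory receptor for IgG, was at -0.34 (SE 0.16, adjusted p 0.236), Cd5, on which the cells were sorted, at -0.23 (SE 0.18, adjusted p 0.424) and Sirpa at -0.28 (SE 0.17, adjusted p 0.318).

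**Figure D4:**
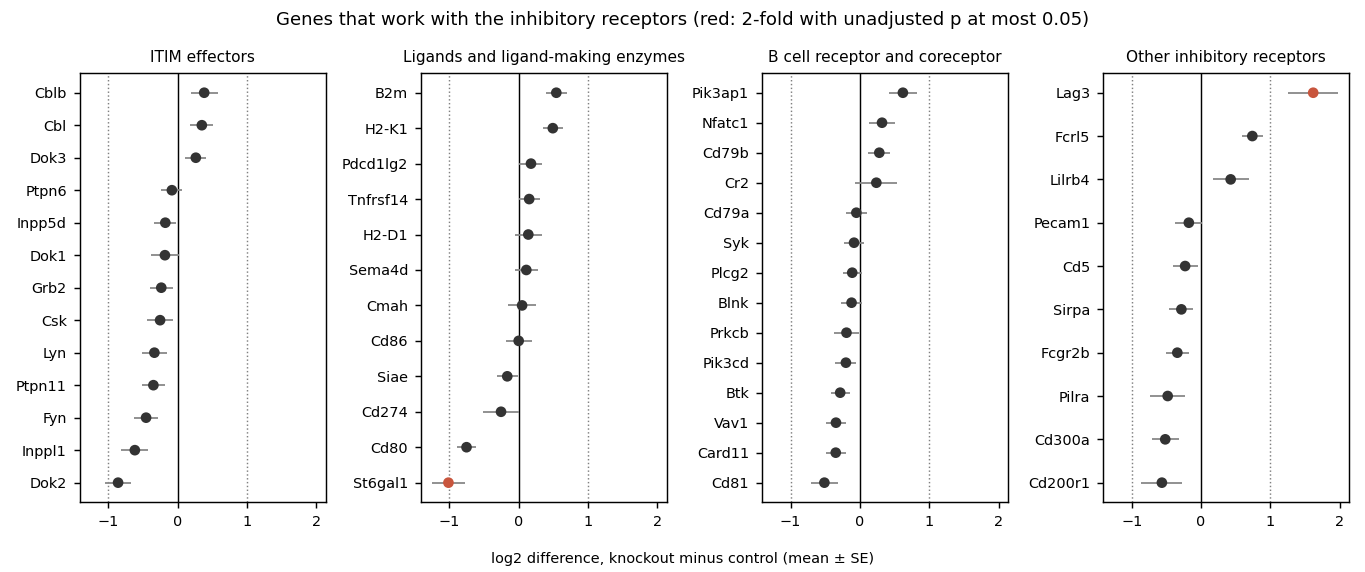
Log2 difference between genotypes (horizontal axis, knockout minus control, by the brightest tested probe, bars ± SE from limma) of tested genes in 4 lists, with 1 tested B cell receptor gene not drawn; dotted lines mark 2-fold and red marks the 2-fold rule. St6gal1 (-1.01) and Lag3 (1.62) are the genes that met it.

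The genes whose levels ran most like each receptor over the 6 arrays are given as a description, with Pearson's r over 6 points that share the genotypes, the slide and the scaling. Among about 14302 probes that were well above background on all 6 arrays and whose gene name is in the RefSeq table, Asxl2 (0.999) was the most like Cd72, and 174 of these probes had an r over 0.95 with it. For Cd22 by its 3′ probe they were Unc93b1 (0.982) and Mlf2 (0.979), for Siglecg by its junction probe 1600029O15Rik (0.969) and Dos (0.962), and for Lilrb3 Epn2 (0.998) and Dnmt3b (0.998). Those most like Lair1 were Oasl1 (0.979) and Ppp1r2 (0.978), those most like Btla were Inf2 (0.996) and Tmem175 (0.987). Ctla4 ran with Hmgn2 (0.995) and Brcc3 (0.994), and Pdcd1 with Ctla2b (0.993) and Grk4 (0.991). With so few arrays, 4 of these probes for Siglecg and 169 for Ctla4 passed an r of 0.95.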

How the data were processed

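RNA of sorted PC B1a cells was hybridized to 6 one-colour Agilent arrays, 3 per genotype. The authors deposited spot intensities from Feature Extraction 10.7.1.1, background subtracted and on each array's own scale. They also deposited log2 values, which are quantile normalized, since every column sorts to the same numbers. From the intensities, log2 of the processed signal minus the array's 75th percentile was taken, outlier spots were left out and spots of a probe averaged. Tested probes had at least 1 spot well above background on each of the 3 arrays of a genotype and were measured on at least 2 arrays of each. The comparison used limma 3.58.1 in R 4.3.3 (lmFit, then eBayes) with genotype as its one term, and Benjamini-Hochberg adjustment ran over all tested probes. The steps were tested on simulated data. Gene names and mm9 positions are those of the array files, and Syk was found under an older symbol through a RefSeq table (GRCm38.p6). Precision is limited by the number of arrays, and replicates may differ only technically as the labels do not tie each to separate animals.

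The members, gene lists and tests were chosen with earlier results of these data known. Named in the text were all members, list genes that were called, up to 4 others of a list with the highest mean, and, for each member, the 2 genes most like it. Dok2, Inppl1 and Cd80 fall outside this rule and were chosen after their values were seen. Some genes that this rule and these lists cover are not reported here. Cell type lists covered B lineage, B1a, B2, T, NK and plasma cells, macrophages, and granulocytes and mast cells. Alternatives were other scalings and background corrections, the deposited values, other filters, probe rules and variance models, the methods' t-test, the replicate number as a block, each array left out and, added after seeing the data, the row of the slide as a block.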

Additional observations from a re-analysis of the deposited data

How the results depend on the processing

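Cd72 kept its direction and its 2-fold call in every alternative, and 3 member probes passed the 2-fold rule with each array left out. With 1 probe per gene, or a gene's probes averaged, 1 member passed it, and 0 passed the adjusted p. After normexp, 2 member probes passed the 2-fold rule with either scaling. The Cd22 5′ probe was then under 2-fold, at 0.92 with the 75th percentile and 0.42 with quantile normalization. With no filter 4 member probes passed the 2-fold rule. The adjusted call of the Cd22 5′ probe held in 6 of 19 alternatives: 0 member probes passed with quantile normalization (with or without normexp), with the median scaling, without a filter, in the deposited values, by the methods' t-test or with the slide row as a block, and 5 passed with normexp and the 75th percentile, 3 with trend and robust estimation and 4 with array weights; with each array left out it was 0 to 1.

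Over all probes the adjusted calls numbered 6 with quantile normalization, 55 with normexp and quantile normalization, 9339 with normexp and the 75th percentile, 8 with the median scaling, 6 in the deposited values, 2 with no filter, 96 with the filter on all 6 arrays, 7 with 1 probe per gene, 11 with the mean of the probes, 979 with trend and robust estimation, 688 with array weights, 0 with the slide row as a block (2262 probes at an unadjusted p under 0.05) and 2 to 137 with an array left out, against 20. The 2-fold calls numbered 192 and 233 with normexp (quantile and 75th percentile), 18975 with no filter, 593 with the filter on all 6 arrays and 853 to 1583 with an array left out, the last without knockout array 3, against 899. The methods' t-test gave 611 probes at the study's thresholds and 1 after Benjamini-Hochberg adjustment. Genes of the 4 lists called by either rule, 2 in the text, numbered 1 with quantile normalization, with normexp and quantile normalization, with the median scaling, in the deposited values, with the mean of the probes and with the slide row, 17 with normexp and the 75th percentile, 5 with no filter, 7 with trend and robust estimation, 4 with array weights and 1 to 3 with an array left out. The causes of these shifts were not tested.

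Values that changed sign were all of probes that met neither rule, among them the 3′ probe of Cd22. With quantile normalization they were Siglecg by the exon probe (0.0095), Lair1 (-0.13), Ptpn6 (0.070), H2-D1 (-0.038) and Cd79b (-0.18). With normexp and quantile normalization they were the same 5, at 0.011, -0.12, 0.068, -0.047 and -0.19. With normexp and the 75th percentile they were Cd22 by the 3′ probe (-0.19), Siglecg by the junction probe (-0.20), Btla (-0.10), Dok3 (-0.061), H2-D1 (-0.19) and Cd79b (-0.063). The median scaling turned Ptpn6 (0.012), and the deposited values turned Lair1 (-0.14), Ptpn6 (0.062), H2-D1 (-0.061) and Cd79b (-0.18). Lair1 was -0.081 with array weights and -0.13 with the slide row as a block. Single arrays left out put Cd22 by the 3′ probe between -0.0078 and 0.22, Siglecg by the exon probe between -0.34 and 0.13 and Lair1 between -0.034 and 0.13.

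The labels give both genotypes replicate numbers 1 to 3 without saying what a number shares. Deviations from the group mean correlated between same-numbered arrays by 0.17, 0.06 and 0.12. Each knockout array correlated best with the control array of its own number (0.17 against -0.010 and -0.18, 0.057 against 0.041 and -0.094, and 0.12 against -0.049 and -0.063), a hint from the data and not the design. As 1 pair was under 0.1, the numbers were not taken to pair the arrays. With the replicate block 1 probe passed the adjusted p in all, 0 of the member probes, and the Cd22 5′ probe, with the same change of 1.36, had an adjusted p of 0.119.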

Other observations

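Beyond the probes that the array names for the 8 genes, 1 probe listed only by a transcript number is described in the array file as paired-Ig-like receptor B. It lies on the minus strand of chromosome 7 at chr7:3668688-3668742. Its level was -0.24, -0.75 and -0.96 in control and -0.46, -0.21 and -0.07 in knockout, a change of 0.40 (SE 0.22, adjusted p in limma 0.285), where the probe named Lilrb3 was at -0.20. A probe listed in the same way and described as leukocyte-associated Ig-like receptor 1 was not well above background on any of the 6 arrays.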
